A study of Sus scrofa with 5 samples.

Results

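The data compare the transcriptome of the additional (permanent) molar germs of miniature pigs at embryonic day 70 (E70) with that at embryonic day 50 (E50). All animals were wild type miniature pigs, and the germs were dissected from the mandible with the dental lamina attached. Per the study's text, the M1 germ was at the cap stage at E50, before the M2 germ had started, and at the late bell stage at E70. RNA was pooled from germs of the same stage. The series holds 5 samples, of which 4 belong to this comparison (1 at E50 and 3 at E70), and the deposited table gives 1 value per transcript for each stage. The 3 E70 samples therefore had 1 merged value, no spread between animals or litters could be computed, and no difference below has a replicate check or a test.

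A tooth germ forms from an epithelium, which becomes the enamel organ, and from a mesenchyme, which becomes the dental papilla and follicle. At the cap stage the enamel organ folds over the papilla around a signalling centre called the enamel knot. At the bell stage the crown shape is set, and the cells at the border of the epithelium and the mesenchyme begin to turn into ameloblasts and odontoblasts, which lay down enamel and dentine. A molar germ at the bell stage thus holds more kinds of cells than a cap stage germ. In such a bulk sample a transcript can be lower because there are fewer cells of a type or because each cell holds less of it, and these cannot be told apart.

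The table holds 45614 transcripts at 18696 loci of the WZSP genome (the Wuzhishan pig assembly, made of scaffolds), and every transcript has a row for this comparison. Expression is in FPKM, a count of fragments that is scaled to exon length and to the mapped fragments of the library. A locus is an interval that holds 1 or more assembled transcripts, and a locus total is the FPKM summed over them. Differences are E70 minus E50 on the log2(FPKM + 1) scale, where 1 is 2-fold, so a change in a transcript of low FPKM is understated. The table gives no gene symbols. Names were used for 33 transcripts, which came from the copies of the study's supplementary lists used here, of which the longest was shortened, and are described below, so markers of enamel epithelium, dental mesenchyme, blood, muscle or bone could not be looked up and the makeup of the germs was not tested.

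Of the 45614 transcripts, 14166 were above 0 at both stages, 6561 were above 0 at E50 and listed at 0 at E70, 4938 were listed at 0 at E50 and above 0 at E70, and 19949 were listed at 0 at both. More transcripts were thus above 0 at E50 (20727) than at E70 (19104). Of the 19949 listed at 0 at both stages, 16315 were above 0 at E60, the stage between them. A value of 0 can be a failed estimate in these files and is not read as absence. Per locus, 9118 of 18696 were above 0 at both stages, 2344 at E50 only, 1400 at E70 only and 5834 at neither.

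A few transcripts held most of the summed FPKM at both stages. The 10 highest made up 57.5% of the sum at E50 and 75.7% at E70, and the highest alone 32.6% and 42.1%. That transcript was TCONS_00291509 (scaffold 188, 567440 to 569240), which was listed at 14600000 FPKM at E50 and 35700000 at E70, and at 325013 at E60. The next at E50, TCONS_00939026 (scaffold 607, 7830380 to 7837472), had 2980000 FPKM at E50 and 4440000 at E70. It was higher at E70 as deposited, by 0.58 on the log2 scale, while its locus total was lower at E70, by −0.35, once both stages were set to the same FPKM sum. A value above 1000000 FPKM occurred for 5 transcripts at E50 and for 7 at E70. Such values are given as listed and are not read as abundances. The sum over all transcripts was 44747113 at E50 and 84737230 at E70. Setting both to the same sum thus shifts every E70 level against E50 by −0.92 on the log2 scale. As the 10 highest transcripts hold most of both sums, this shift rests largely on a few values, some listed at 0 at the other stage. A shift the other way, of 1.32, comes from a scaling chosen after seeing the data. It takes the most common ratio between the stages in single-transcript loci under 1 FPKM, called the most common low-locus ratio. The deposited values were used as they stand, those of E60 too, which were not scaled to the other stages. Counts of each named gene list are also given below with the same sum and with this ratio.

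Several of the highest transcripts were listed at 0 at the other stage. TCONS_00642074, the only transcript of a 332 base pair interval (scaffold 36, 2209393 to 2209724), was at 0 at E50 and 9020000 FPKM at E70. TCONS_00451489 (scaffold 2543) was at 0 and 6010000, TCONS_00766757 (scaffold 44) at 0 and 863585, TCONS_00701838 (scaffold 404) at 0 and 741142, and TCONS_01103700 (scaffold 834) at 0 and 707558. Each of these 5 was also listed at 0 at E60. In the other direction TCONS_00176459 and TCONS_00392346, the only transcripts of intervals of 417 and 342 base pairs on scaffolds 14 and 231, were both at 1220000 FPKM at E50 and 0 at E70. TCONS_00293080, in an interval of 203 base pairs on scaffold 188, went from 1000000 to 0, and TCONS_00882207 on scaffold 541 from 815421 to 0. TCONS_00051492 on scaffold 105 went from 1290000 to 0 and carried the status LOWDATA, which Cuffdiff gives to rows with too little or too complex data. No fold is given for any of these 10, because the lower value is 0. Of all transcripts listed at 0 at E50, 1056 had 10 FPKM or more at E70, and 800 of those at 0 at E70 had 10 or more at E50.

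At the threshold of 2-fold, 5142 transcripts (11.3% of all) were higher at E70 and 4883 (10.7%) were lower. Among the transcripts that changed, 51.3% were higher at E70 (95% Wilson interval 50.3% to 52.3%, which covers counting over transcripts only). The median difference over all 45614 transcripts was 0. Of locus totals, 2707 (14.5%) were higher and 2735 (14.6%) lower, and 49.7% of those that changed were higher (48.4% to 51.1%). With the stages set to the same FPKM sum these shares were 32.8% for transcripts and 28.9% for loci. The 2 stages were correlated over transcripts with r = 0.72 on the log2 scale and rho = 0.59, and over loci with r = 0.83 and rho = 0.76. These correlations are descriptions over features of the same libraries and have no p-value.

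**Figure D1:**
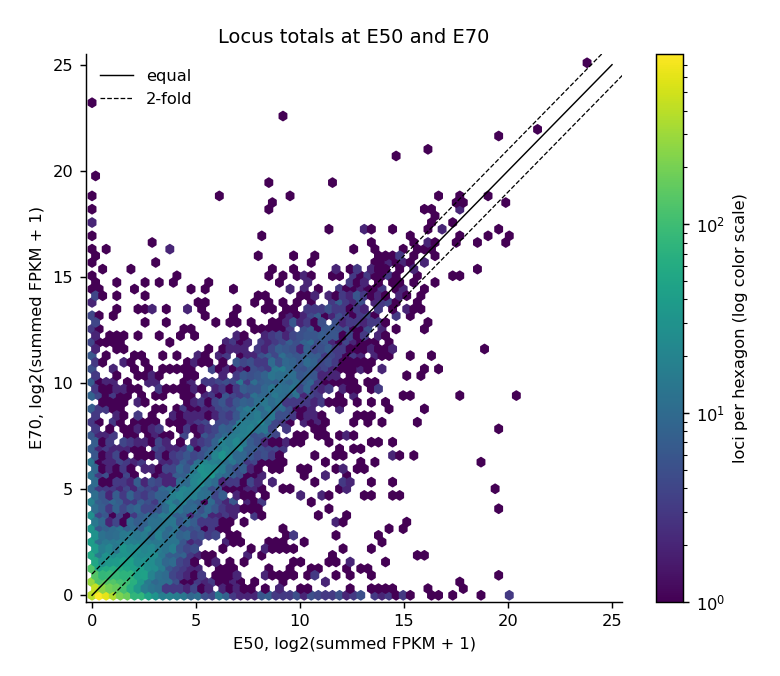
Locus totals at E50 (x axis) and E70 (y axis), both as log2(summed FPKM + 1), for the 12862 loci above 0 at either stage. Color gives the loci per hexagon on a log scale, the solid line marks equal values and the dashed lines 2-fold. Loci listed at 0 at 1 stage lie along the axes, 1400 along the y axis and 2344 along the x axis.

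Among the better expressed loci, more were higher at E70 than lower. Of 5767 loci with 1 FPKM or more at both stages, 1747 (30.3%) were higher and 1038 (18%) lower, with a median difference of 0.27. Of 3652 loci with 10 FPKM or more at both, 1265 (34.6%) were higher and 480 (13.1%) lower, so that 72.5% of those that changed were higher at E70 (70.3% to 74.5%), with a median difference of 0.48. Over the same 3652 loci the share was 76.8% with the stages set to the same median, 49.7% after quantile normalization and 38.1% with the same FPKM sum. The direction of this group as a whole is thus set by the scaling, and a direction relative to other loci is the most that the values give. Among transcripts with 10 FPKM or more at both stages, 1528 (32.3%) were higher and 495 (10.5%) lower, with a median of 0.44.

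The difference between the stages varied with the level. For the 4520 transcripts whose mean level over both stages was under 1 on the log2(FPKM + 1) scale, the median difference was −0.12. It was −0.40 for levels of 1 to 2, 0.08 for 2 to 4, 0.31 for 4 to 6, 0.39 for 6 to 8, 0.76 for 8 to 10 and 0.95 for 10 to 25. Of the transcripts that changed, 24.6% were higher at E70 in the lowest of these classes, 85.6% at levels of 8 to 10 and 80.7% in the highest of them. Locus totals gave medians from −0.54 at levels of 1 to 2 up to 0.94 in the highest class. With the same FPKM sum the loci of the highest class had a median of 0.02 and those at levels of 1 to 2 a median of −1.10, so the highest class again stood above. Quantile normalization gave 0.33 and −0.35. After it the lowest class of loci, at 0.04, stood above those at levels of 4 to 6 (−0.21) and 6 to 8 (−0.19). Of the transcripts that changed, 54.5% were then higher at E70 in the lowest class, 56.6% at levels of 8 to 10 and 62.2% in the highest. Most of the gradient thus depends on the scaling.

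**Figure D2:**
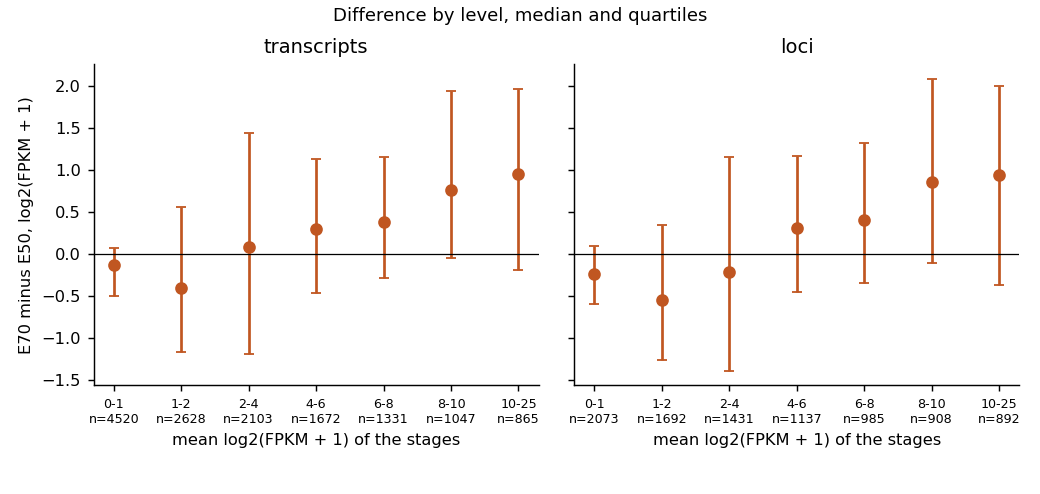
Difference between E70 and E50 on the log2(FPKM + 1) scale (y axis) in classes of the mean level of both stages (x axis), for transcripts (left) and loci (right) above 0 at both stages. Points are medians and bars run from the lower to the upper quartile over features, not over replicates. The medians of transcripts lie at −0.12 and −0.40 in the lowest classes and at 0.95 in the highest.

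The direction also varied with the number of transcripts assembled at a locus. Among loci with 1 FPKM or more at both stages, the 685 with a single transcript had a median difference of −0.22, and 36.4% of those that changed were higher at E70. The median was 0.07 for the 956 loci with 2 transcripts, 0.27 for the 2272 with 3 or 4, 0.61 for the 1447 with 5 to 7 and 0.68 for the 407 with 8 to 23. In that last class 72.1% of the changed loci were higher. The sign of the single-transcript loci is set against the other classes at the scale as deposited.

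The largest differences in locus totals came from single transcripts that were listed at 0 at the other stage. Among loci with 1 FPKM or more at both stages, the 5 largest differences toward E70 were at scaffold 274 from 552106 to 574303 (2.32 to 39860 FPKM, a log2 difference of 13.55), scaffold 213 from 4035804 to 4077681 (6.81 to 90497), scaffold 450 from 218809 to 255888 (1.45 to 27588), scaffold 2543 from 396481 to 415334 (554 to 6010397) and scaffold 280 from 421218 to 459011 (1.47 to 17033). In each, 1 transcript at 0 at E50 made up 99.9% or more of the E70 total. The files used here, with the longest list shortened, do not say which genes these are. At E60 the 5 totals lay between 17.2 and 89.7 FPKM.

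The 5 largest differences toward E50 had the same form. The total on scaffold 192 from 1991260 to 2010946 was 707956 FPKM at E50 and 1.03 at E70, a log2 difference of −18.41, and it was −6.62 without its leading transcript, whose status is LOWDATA. Totals on scaffold 541 (135921 to 282524) went from 815445 to 14.6 and on scaffold 436 (4576255 to 4615382) from 719976 to 28.7. The latter difference was −6.56 where values above 0 were taken from the rows of the other comparisons. The total on scaffold 497 (15504 to 44494) went from 61329 to 3.12, but without its LOWDATA transcripts it was 3.02 and 3.12, a difference of 0.04. That on scaffold 405 (491173 to 495335) went from 57246 to 2.88. The leading transcripts held 95.2% to 100% of the E50 totals and were listed at 0 at E70.

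Single transcripts with 1 FPKM or more at both stages differed by at most 11.27 toward E70 and −10.61 toward E50, less than these locus totals. Among them TCONS_00912676 (scaffold 584, 495966 to 503499) was at 3.44 FPKM at E50 and 10943 at E70, a log2 difference of 11.27. TCONS_01148693, the only transcript of its locus (scaffold 93, 9725516 to 9728148) and 1 of the 450 long intergenic noncoding RNAs (lincRNAs) described below, went from 17.0 to 31797, and was at 4383 FPKM at E60. TCONS_00995679, also alone at its locus (scaffold 669, 1347927 to 1349244), went from 1.04 to 1493 and was at 2843 at E60. At TCONS_00912676 the E60 value was 2163 FPKM. TCONS_00905640 (scaffold 573) went from 5.89 to 7494 and was listed at 0 at E60, and TCONS_00779923 (scaffold 448) went from 36.0 to 29072 and was at 134 at E60. On the log2 scale the E60 value was thus nearer to E70 in 3 of the 5 and nearer to E50 in 2.

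In the other direction TCONS_01018358 and TCONS_01017501, transcripts of the same locus (scaffold 696, 2265516 to 2276093), went from 4437 to 1.83 FPKM and from 2642 to 1.36, log2 differences of −10.61 and −10.13. The total of that locus went from 56425 to 10736, so most of its FPKM lay in other transcripts. TCONS_00559743 (scaffold 3089, 424656 to 426701) went from 2479 to 2.15. TCONS_00069168 (scaffold 11, 240331 to 171) and TCONS_00115040 (scaffold 1219, 482691 to 482) carried the status LOWDATA. Without such transcripts the totals of their loci were higher at E70, by 3.33 and 4.41, in place of −2.12 and −7.32.

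Transcripts of 1 locus often differed in opposite directions. Of 10528 loci with 2 or more transcripts, 1177 (11.2%) held a transcript at least 2-fold higher and another at least 2-fold lower at E70, each with 1 FPKM or more at its higher stage, and at 406 of them the total stayed within 2-fold. The leading transcript, that with the most FPKM, differed between E50 and E70 at 1193 of 5082 such loci with a total of 1 FPKM or more at both stages (23.5%). With 10 FPKM as the minimum these counts were 455 (4.32%) and 579 of 3441 (16.8%). A scaling factor common to a stage leaves the share of each transcript in its locus as it was. Cufflinks divides reads among overlapping transcripts by a model, and the error of that division cannot be computed from the files.

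At 63 loci a transcript was higher and another lower, both with 1 FPKM or more at each stage, with a total within 2-fold as deposited. In the one with the largest such moves (scaffold 427, 1013321 to 1334228, 6 transcripts) the total was 3645 FPKM at E50 and 3325 at E70. Its transcript TCONS_00746842 went from 740 to 7.33 while TCONS_00750437 went from 4.23 to 299 and TCONS_00750435 from 148 to 1118. The leading transcript, TCONS_00748457, was at 2753 and 1874, within 2-fold.

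At scaffold 555 (2175235 to 2203613) the lead passed from TCONS_00895292 (232 to 1.18 FPKM) to TCONS_00895759 (4.27 to 128), with totals of 237 and 130. On scaffold 1640 (644759 to 648763) it passed from TCONS_00243047 (5194 to 692) to TCONS_00243780 (1027 to 7866), while TCONS_00243048 went from 3971 to 0, with totals of 11583 and 9962. Here 2 of the 5 loci changed their lead. On scaffold 283 (2674926 to 2683645) TCONS_00500454 went from 103 to 1.16 and TCONS_00499904 from 122 to 2699 under a leading transcript at 9041 and 6447. On scaffold 211 (6264040 to 6275000) TCONS_00347531 went from 505 to 2.18 and TCONS_00351320 from 5.31 to 103, while the lead stayed with TCONS_00349748 (4287 and 5470). The totals on scaffolds 427 (−1.05), 1640 (−1.14) and 555 (−1.77) were past 2-fold with the same FPKM sum, and after quantile normalization that on scaffold 555 was (−1.54). With the most common low-locus ratio those on scaffolds 427 (1.19), 1640 (1.11), 283 (1.46) and 211 (1.54) were past 2-fold toward E70. The difference on scaffold 555 was 0.44 where values above 0 came from the rows of other comparisons.

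**Figure D3:**
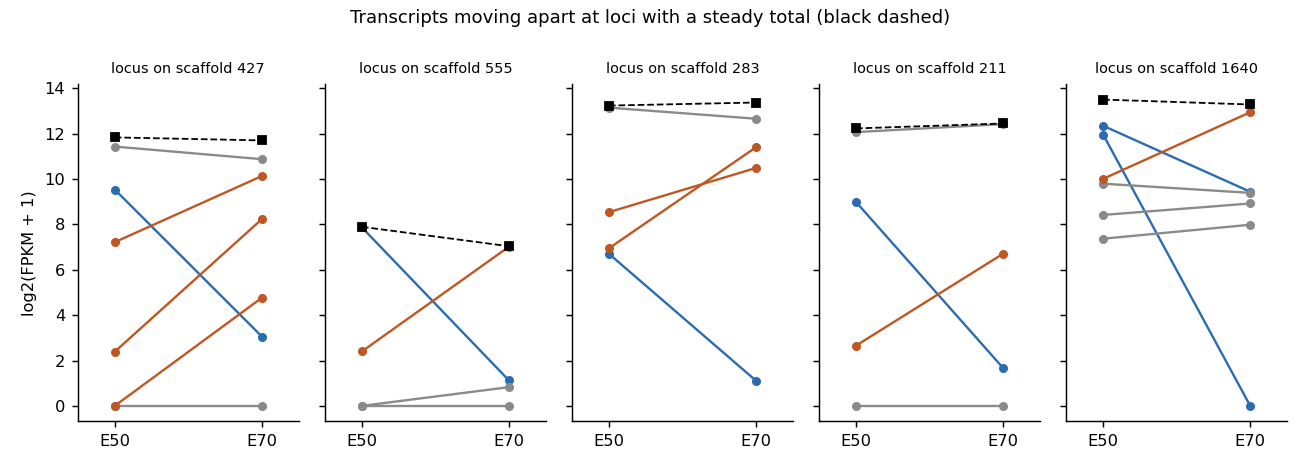
FPKM of every transcript, as log2(FPKM + 1), at E50 and E70 for 5 loci with opposite moves and a total within 2-fold as deposited. Orange lines are transcripts at least 2-fold higher at E70, blue lines at least 2-fold lower, grey lines within 2-fold, and the black dashed line is the locus total. On scaffolds 555 and 1640 the highest transcript changes from a blue line at E50 to an orange line at E70.

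Gene symbols were available for 13 septins and 8 MARCH ligases. In the shortened copy of the study's supplementary list used here, which may leave out other members, a spreadsheet had turned these symbols into dates, and September dates were read as septins and March dates as MARCH genes. The gene ontology terms beside them fitted that reading for 13 of 13 and 8 of 8, and 2 further dates were not read. Septins are GTP-binding proteins that assemble into filaments and rings under the cell membrane, act in cytokinesis and set barriers at the base of cilia. The MARCH proteins are membrane-associated RING-type ubiquitin ligases that mark membrane proteins for removal. Neither group was chosen for a difference between E50 and E70, but each was taken with earlier results of these data known. The list gives each symbol to 1 transcript, and the totals below also hold the other transcripts of the locus. The transcript with the symbol was listed at 0 at both stages for 5 of 13 septins (SEPT2, SEPT3, SEPT4, SEPT10 and SEPT12) and for 4 of 8 MARCH genes (MARCH4, MARCH8, MARCH10 and MARCH11).

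Of the 13 septin loci, 3 were at least 2-fold higher at E70, 2 lower and 8 within 2-fold, with a median difference of 0. Thus 38.5% differed, where 29.1% of all loci did, or 5442 of the 12862 loci above 0 at either stage. With the same FPKM sum 2 were higher and 6 lower (SEPT2, SEPT3, SEPT4, SEPT5, SEPT6 and SEPT14), with a median of −0.55, where 9.52% of all loci were higher and 23.4% lower. With the most common low-locus ratio 6 were higher (SEPT1, SEPT7, SEPT8, SEPT9, SEPT10 and SEPT11) and 2 lower. The median was then 0.42, and 26.7% of all loci were higher and 7.15% lower. With a pseudocount of 0.1 as deposited, 3 were higher and 5 lower, where 20.0% and 27.0% of all loci were. SEPT7, a core subunit of septin filaments, had the second highest total, 17210 FPKM at E50 and 35307 at E70, a log2 difference of 1.04 as deposited and of 0.12 with the same FPKM sum. All 3 of its transcripts (scaffold 177, 9347568 to 9423597) were above 0 at both stages, the leading TCONS_00270062 with 14848 and 26312 FPKM, TCONS_00270066 with 1666 and 8534, and TCONS_00268814 with 696 and 462. SEPT9, which joins SEPT7 in longer filament complexes, had the highest total, 28324 and 50591 FPKM (0.84, and −0.08 with the same sum). Its 2 leading transcripts both carried the status LOWDATA, and without them the SEPT9 totals were 4.41 and 210 FPKM, a difference of 5.28.

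Of the other core subunits of the filament, the SEPT2 locus was lower at E70 by more than 2-fold and that of SEPT6 by less. The SEPT2 locus (scaffold 3060, 354707 to 389780) was at 20.7 FPKM at E50 and 1.72 at E70, a log2 difference of −3.00 that lay between −3.71 and −1.92 under the other scalings. It was at 416 FPKM at E60. All of it was in TCONS_00555476, while the transcript with the SEPT2 symbol, TCONS_00555583, had the status LOWDATA and was listed at 0 at all 3 stages. SEPT6 (scaffold 212) went from 220 to 117 (−0.90, within 2-fold, and −1.82 with the same sum), which without its LOWDATA transcript was 127 and 100. SEPT8, of the same septin group as SEPT6, was at 47.1 and 60.5 FPKM, a difference of 0.36 that was −0.55 with the same sum.

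The remaining septins with a 2-fold difference rest on 1 transcript each. SEPT11 went from 328 to 18475 FPKM (5.81), nearly all in TCONS_01060329, which carried the status LOWDATA. Without it the totals were 5.14 and 3.90. SEPT5, a septin of exocytosis, went from 1135 to 53.9 (−4.37), nearly all in the LOWDATA transcript TCONS_00174819, which was at 1087 and 0. Without it the totals were 47.5 and 53.9. SEPT10 was listed at 0 at E50 and was at 55.2 FPKM at E70 and 67.9 at E60, all in TCONS_00879235, while the transcript with the SEPT10 symbol, TCONS_00878987, was listed at 0 at all 3.

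Low septins stayed low at both stages. SEPT1 was at 2.76 and 4.44 FPKM, SEPT14, known from testis, at 1.18 and 0.379, and SEPT12, a septin of sperm, was listed at 0 at both stages and at E60. SEPT4 was at 0.944 FPKM at E50 and listed at 0 at E70. SEPT3, known from neurons, was at 0.735 and listed at 0, but with the value above 0 that another comparison's row holds for E70 its difference was 12.99. Its E70 level is therefore not settled by the table.

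Of the 8 MARCH loci, 1 was at least 2-fold higher at E70, 2 were lower and 5 were within 2-fold, and none rests on a LOWDATA transcript. Thus 37.5% differed, beside 29.1% of all loci, or 5442 of the 12862 loci above 0 at either stage. With the same FPKM sum 0 were higher and 3 lower, where 9.52% and 23.4% of all loci were. With the most common low-locus ratio 3 were higher and 2 lower, where 26.7% and 7.15% were. MARCH7 was the highest of them, with 721 FPKM at E50 and 1953 at E70 (1.44, and 0.51 with the same sum), nearly all in TCONS_01099982, which was listed at 0 at E60. MARCH5, a ligase of the outer mitochondrial membrane, was lower at E70, 20.5 against 0.830 FPKM (−3.56, between −4.19 and −2.60 under the other scalings). Both of its transcripts that were above 0 at E50 were lower, TCONS_00452520 from 14.8 to 0 and TCONS_00454494 from 5.75 to 0.830. MARCH1, which removes MHC class II molecules from the surface of immune cells, was at 6.45 FPKM at E50, 2.19 at E60 and listed at 0 at E70.

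MARCH6, a ligase of protein degradation at the endoplasmic reticulum, had a total of 51.5 and 52.8 FPKM (0.04 as deposited). The difference was −0.87 with the same sum and 1.33 with the most common low-locus ratio. Within the locus TCONS_00744003 was at 44.4 FPKM at E50 and lower within 2-fold at E70, a log2 difference of −0.80, and TCONS_00745531 at 0 and 18.8. MARCH8 was at 16.6 and 23.1 FPKM, a difference of 0.45 that was −0.43 with the same sum and 1.70 with the most common low-locus ratio. MARCH10 and MARCH11 were under 1 FPKM at both stages, and MARCH4 was listed at 0 at all 3 stages.

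**Figure D4:**
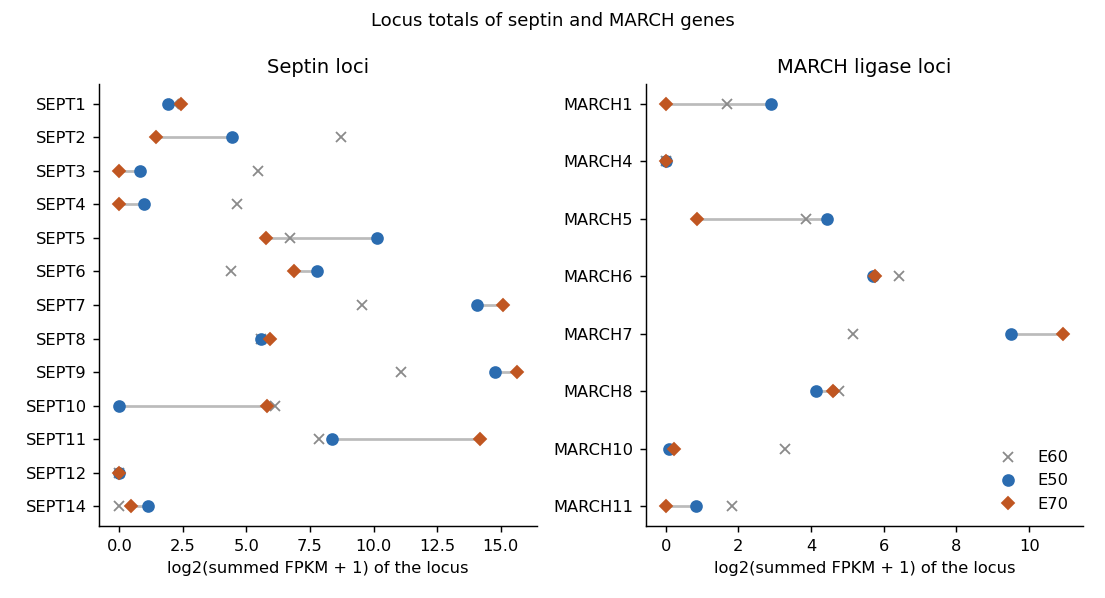
Locus totals, as log2(summed FPKM + 1), of the 13 septins (left) and 8 MARCH ligases (right) at E50 (circles) and E70 (diamonds), with E60 (crosses) beside them. Grey lines join E50 and E70, and each point is 1 merged value with no error. The long lines of SEPT5 and SEPT11 rest on LOWDATA transcripts, and those of SEPT2 and SEPT10 on a transcript of the locus that does not carry the symbol.

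The last named genes are 12 protein-coding neighbours of lincRNAs. A lincRNA is a spliced transcript of low coding potential between protein-coding genes, and some act on the gene beside them. The study lists these pairs for a negative correlation of lincRNA and neighbour in the same samples, so the pairs are no independent evidence of a direction. As transcripts, 1 of 12 neighbours was at least 2-fold higher at E70, 1 lower and 10 within 2-fold, where 22% of all transcripts differed by 2-fold. All 12 were above 0 at both stages, where 5244 of 14166 transcripts differed. With the most common low-locus ratio 1 was higher and 1 lower, where 19.1% and 5.99% of all transcripts were. With the same FPKM sum 0 were higher and 4 lower, where 8.08% and 16.6% of all transcripts were. RBM5, a splicing regulator, was the higher one, at 0.728 FPKM at E50 and 3.40 at E70 (1.35, and 0.79 with the same sum). CNOT8, a deadenylase that shortens poly(A) tails, was the lower one, at 2.54 and 0.145 FPKM (−1.63).

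For the listed transcripts of these genes both stages lay below E60 as deposited, with no scaling of E60. The 12 neighbour transcripts lay between 0.213 and 20.8 FPKM at E50, between 0.145 and 15.9 at E70, and between 8.98 and 205 at E60. The highest, AP2M1, which encodes the cargo-binding subunit of the clathrin adaptor AP-2, was at 20.8 FPKM at E50, 15.9 at E70 and 205 at E60. NFE2L2, the transcription factor of the oxidative stress response, was at 0.674, 0.479 and 40.7 in the same order. GGPS1, the geranylgeranyl diphosphate synthase, was at 2.74, 1.03 and 32.6, with a difference between E50 and E70 of −0.88, which was −1.45 with the same sum.

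The listed transcripts of the remaining neighbours were also low at E50 and E70. ADAT1, a tRNA deaminase, was at 0.213 and 0.341 FPKM, COG4, a subunit of a Golgi tethering complex, at 0.748 and 1.15, and ZDHHC18, a palmitoyltransferase, at 0.274 and 0.603. SAMD4B, an RNA-binding repressor, was at 1.21 and 0.992 FPKM, and TLCD2 at 0.422 and 0.169. DTX3, a ubiquitin ligase of the Deltex family, was at 1.62 and 0.486 FPKM (−0.82), and its locus total at 2.53 and 0.486 (−1.25).

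Locus totals of the neighbours differed from the listed transcript where another transcript led. The COG4 total was 492 FPKM at E50 and 705 at E70, with 94.5 at E60, and that of SAMD4B was 63.5 and 69.0, with 29.5 at E60. At these and at RPN1 and AP2M1, 4 of the 12, the E60 total lay below both other stages, the reverse of the listed transcripts. RPN1, a subunit of the oligosaccharyltransferase, had a listed transcript at 0.694 and 1.08 FPKM, but its locus total was 383 at E50 and 1508 at E70, with 35.2 at E60 (1.97, and 1.05 with the same sum), mostly TCONS_00440576 with 337 and 1399. The AP2M1 total was 2017 at E50 and 4947 at E70, with 938 at E60 (1.29, and 0.37 with the same sum), nearly all in 2 LOWDATA transcripts. Without these it was 20.8 and 74.1 FPKM, a difference of 1.78. As totals, 3 neighbours (RPN1, AP2M1 and RBM5) were at least 2-fold higher at E70, 2 (CNOT8 and DTX3) lower and 7 within 2-fold. That is 41.7% of the 12, beside 29.1% of all loci, a background that includes 5834 loci listed at 0 at both stages. All 12 were above 0 at both, where 3971 of 9118 loci differed. With the same FPKM sum 1 was higher and 3 lower, where 9.52% and 23.4% of all loci were. With the most common low-locus ratio 5 were higher and 1 lower, where 26.7% and 7.15% were.

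The 12 lincRNAs beside them lay between 22.3 and 17916 FPKM at E50 and between 22.3 and 14287 at E70. As single transcripts, only the one beside AP2M1 was at least 2-fold higher, at 138 FPKM at E50 and 290 at E70 (1.06, and its locus total 0.14 with the same sum), and only the one beside DTX3 at least 2-fold lower, at 463 and 208 (−1.15). The lincRNA beside SAMD4B had the highest level, 17916 and 14287 FPKM, and the one beside NFE2L2 was at 3450 and 2854. As deposited the other 10 were within 2-fold, so 16.7% of the 12 differed, beside 22% of all transcripts. Among transcripts with 10 FPKM or more at both stages, as all 12 were, 2023 of 4731 differed. With the same FPKM sum 0 of the 12 were higher and 6 lower, with a median of −0.96, where 8.08% of all transcripts were higher and 16.6% lower. After quantile normalization 0 were higher and 3 lower, where 10.4% and 11% of all transcripts were. The scaling by the ratio between the stages in single-transcript loci under 1 FPKM was chosen after seeing the data. With the second most common of these ratios 3 were higher and 0 lower, where 12.9% and 9.22% of all transcripts were, and with the most common ratio 7 were higher and 0 lower, where 19.1% and 5.99% were. At E60 the 12 lay between 0.441 and 493 FPKM, each below both of its other values. As locus totals, 4 of the 12 were at least 2-fold higher at E70, those beside RBM5 (3.38), GGPS1 (1.35), NFE2L2 (1.29) and AP2M1 (1.06), and 1 was lower, that beside TLCD2 (−1.11). That is 41.7%, beside 29.1% of all loci. All 12 totals were above 0 at both stages, where 3971 of 9118 loci differed. With the same FPKM sum 1 was higher and 5 lower, where 9.52% and 23.4% of all loci were. Quantile normalization gave 1 higher and 3 lower, where 12.7% and 15.0% were. With the most common low-locus ratio 8 were higher and 0 lower, where 26.7% and 7.15% were. Other transcripts set these totals in part. The lincRNA beside RBM5 was at 22.3 and 37.3 FPKM and its locus total at 736 and 7646, which without its 3 LOWDATA transcripts was 24.0 and 5617, a difference of 7.81. The lincRNA beside NFE2L2 differed by −0.27, and its total by 3.96 in place of 1.29 where values above 0 came from the rows of other comparisons. The lincRNA beside TLCD2 differed by 0.24.

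**Figure D5:**
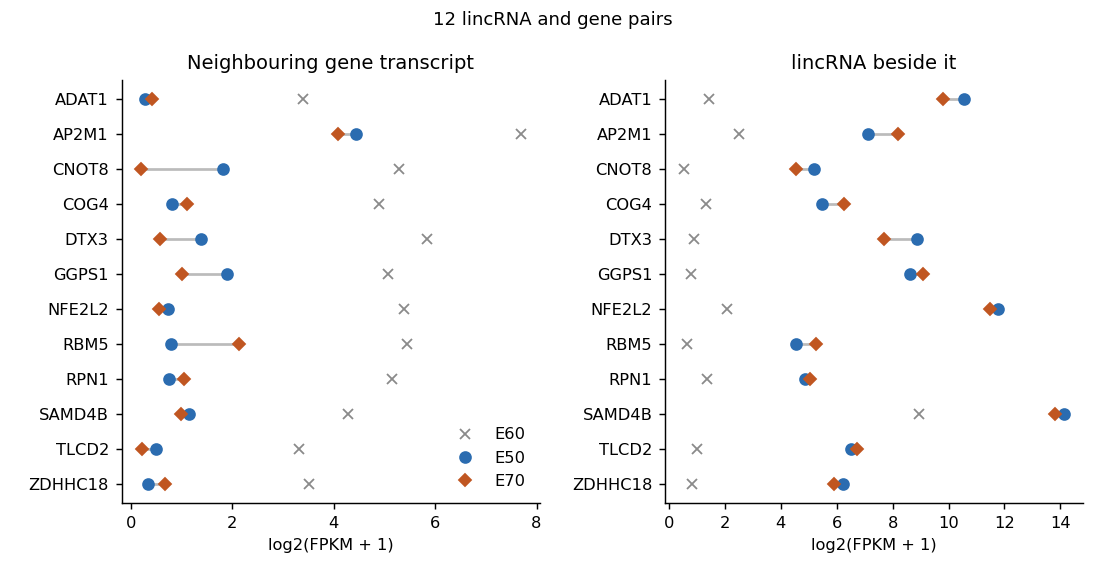
The 12 neighbouring gene transcripts (left) and the lincRNA beside each (right), as log2(FPKM + 1), at E50 (circles), E70 (diamonds) and E60 (crosses). Each point is 1 merged value with no error. E50 and E70 lie within 2-fold as deposited for 10 of the 12 genes and 10 of the 12 lincRNAs, and E60 lies above both for the genes and below both for the lincRNAs.

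The study chose its 450 lincRNAs on these same data, as differing between E50 and E60 or between E60 and E70, so they are no random sample of lincRNAs and what follows describes this list. Their median was 67.1 FPKM at E50 and 64.0 at E70, and the correlation over the 385 above 0 at both stages was r = 0.85 on the log2 scale (r = 0.90 over all 14166 transcripts above 0 at both). Of the 450, 97 were at least 2-fold higher at E70 and 100 lower, and the median difference was 0.11. With the same FPKM sum these counts were 47 and 175, and the median −0.71, where 8.08% and 16.6% of all transcripts were higher and lower. As deposited, over all transcripts 11.3% were higher and 10.7% lower, but this background includes many transcripts listed at 0 at both stages. Among transcripts above 0 at both, 20.7% of all were higher and 16.3% lower, and of the 385 lincRNAs 85 were higher and 77 lower. Of the 450, 31 were listed at 0 at E50 only and 34 at E70 only.

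The share that differed by 2-fold depended on the level in the lincRNAs as in all transcripts. At mean levels of 8 to 25 on the log2 scale, 53 of 129 lincRNAs (41.1%) differed by 2-fold, with a median difference of 0.35, while 56.0% of all 1912 transcripts did, with a median of 0.84. At levels of 2 to 4 it was 27 of 37 lincRNAs (73.0%) and 59.0% of all. These shares were not tested against each other, and the lincRNAs are among the transcripts they are compared with. Of the 424 loci that hold these lincRNAs, the totals of 152 were higher and of 74 lower at E70, or 35.8% and 17.5%, with a median of 0.47. Of all loci 14.5% were higher and 14.6% lower, and of all loci with 10 FPKM or more at both stages 34.6% and 13.1%, with a median of 0.48.

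Among the lincRNAs with 1 FPKM or more at both stages, the one with the largest difference after TCONS_01148693 and TCONS_00779923 toward E70 was TCONS_01038786 (scaffold 726, 6 to 58696), at 165 FPKM at E50 and 21327 at E70. Toward E50 the 3 largest under the same limit were TCONS_00515421 (scaffold 290, 1085897 to 1136742) at 1270 and 1.66, TCONS_00298100 (scaffold 190, 7367367 to 7384661) at 1930 FPKM at E50 with a log2 difference of −7.11, and TCONS_00515756 (scaffold 290, 3319120 to 3409638) at 1535 and 17.5. They were at 1.39, 2.25 and 0.391 FPKM at E60, on the side of E70. Their loci gave the same direction, except that the totals of the loci of TCONS_00515421 and TCONS_00515756 were higher at E70, by 3.64 and 4.06, where values above 0 came from the rows of other comparisons.

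As deposited, the E60 total lay outside the range of E50 and E70 at most loci. E60 was not scaled to the other stages, and its values may lie on another scale. TCONS_00291509, for instance, had 325013 FPKM at E60 beside 14600000 at E50 and 35700000 at E70. The position of E60 under another scaling was not tested. Of the 1747 loci with 1 FPKM or more at both stages that were at least 2-fold higher at E70, the E60 total lay between E50 and E70 at 399 (22.8%), above both at 339 and below both at 1009 (57.8%). Their median totals at E50, E60 and E70 were 81.5, 44.9 and 664 FPKM. Of the 1038 that were lower at E70, E60 lay between at 281 (27.1%), above both at 348 and below both at 409. Their medians were 48.4, 29.4 and 7.07 FPKM.

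Over 1904 pairs of neighbouring loci with 1 FPKM or more at both stages, the differences had a correlation of r = 0.01, and of 472 pairs in which both loci differed by 2-fold, 248 (52.5%) differed in the same direction. For the 816 pairs less than 10 kb apart r was −0.01, and 99 of 200 such pairs (49.5%) differed in the same direction. For the 830 pairs at 10 to 100 kb r was 0.04 with 112 of 200 (56%), and for the 258 farther apart r was −0.02 with 37 of 72 (51.4%).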

How the data were processed

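RNA pooled from molar germs of each stage was sequenced as paired-end reads. Per the study's text, cDNA libraries were normalised before sequencing, which can compress differences in abundance. The authors used TopHat for alignment to the Wuzhishan pig (WZSP) assembly, and merged replicates before quantification. They assembled transcripts with Cufflinks (version 1.0.3 in the submitters' processing notes, while the study's methods name a later version) and compared stages with Cuffdiff. The authors deposited FPKM values for each transcript and stage. Their fold changes, p-values and q-values in the same table were not used, and their status column was read only as a quality mark. The methods name a quantile normalization that the deposited values do not show. The study gives read totals per stage, which were not used here, and the table does not give the fragments behind each value.

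Values of E50 and E70 were taken from the rows that compare these stages. The E60 value of a transcript is the largest of those in the rows of the other comparisons. Differences were computed on log2(FPKM + 1) per transcript and per locus, and 2-fold was the threshold. With 1 merged value per stage no test was made. Wilson 95% intervals cover counting over features only. Named features were the 5 largest differences in each direction for loci and transcripts with 1 FPKM or more at both stages, the 5 highest at each stage, the 5 highest among those at 0 at the other stage, all septins and MARCH genes of the shortened list copy, all lincRNA pairs, 3 lincRNAs per direction and 5 loci with opposite moves. The members and lists were chosen with earlier results of these data known. Starts count from 1. Alternatives were another pseudocount, threshold, filters and scalings. Of these, the scalings by low loci and the omission of LOWDATA or FAIL transcripts were added after the data were seen. Symbols were matched to RefSeq names for all 13 septins, 8 MARCH genes and 12 neighbours. The calculation was tested on simulated data. Python 3.11.15, numpy 2.4.6, pandas 2.3.3, scipy 1.17.1 and matplotlib 3.10.9 were used.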

Additional observations from a re-analysis of the deposited data

How the results depend on the processing

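No paired analysis was possible because the table gives 1 merged value per stage, and for the same reason no replicate could be left out. With a pseudocount of 0.1, 7794 transcripts were higher and 9807 lower (44.3% higher), and 5039 loci were lower (42.6% higher). With the same FPKM sum, 7565 transcripts were lower (32.8% higher), 1780 loci were higher and 4382 lower (28.9%), and 47 lincRNAs were higher and 175 lower (median −0.71). With the same median the shares were 54.6% of transcripts and 53.6% of loci (lincRNA median 0.21), and after quantile normalization 48.6% and 45.9% (−0.40). With a mean FPKM of at least 1 they were 54.8% and 52.8%, with medians of 0.18 and 0.13. Above 0 at both stages 2938 transcripts were higher and 2306 lower (56.0%; loci 53.9%). At 4-fold, 3001 transcripts were higher and 1991 lower (60.1%), 1510 loci higher and 1035 lower (59.3%), and 42 lincRNAs higher and 61 lower. Values above 0 from other rows gave 52.5% of transcripts, and reversed the locus totals of TCONS_00515421 (3.64) and TCONS_00515756 (4.06). Of the alternatives chosen after seeing the data, scaling by the second most common ratio of low single-transcript loci gave 58.3% and 58.0% (lincRNA median 0.35). The most common ratio gave 8696 transcripts higher and 2733 lower (76.1%), 4991 loci higher and 1336 lower (78.9%), and 252 lincRNAs higher and 52 lower (median 1.23), and it reversed the lincRNA beside DTX3 (0.17) and the locus total of that beside TLCD2 (0.21). The values do not settle which ratio applies. Leaving out LOWDATA or FAIL transcripts gave 52.6% and 51.8% and reversed the locus totals of SEPT5 (0.18), SEPT11 (−0.32), TCONS_00051492 (0.11), TCONS_00069168 (3.33), TCONS_00115040 (4.41) and TCONS_00848022 (0.036). A minimum of 10 FPKM left 455 loci with opposite moves and 579 with another leading transcript. The rank correlation over transcripts was 0.59. The cause of these differences was not tested. Of the other values, 1926 were counted as unchanged. For single genes, transcripts and loci this meant the same call (higher, lower or within 2-fold), however far the value moved. The COG4 total, for instance, went from 0.52 to −0.40 with the same FPKM sum. The MARCH1 total went from −2.90 to −6.03 with a pseudocount of 0.1. For counts and medians of lists, unchanged meant a move below the limit set for them. A further 233 values changed by more than this without reversing a called direction. LOWDATA or FAIL transcripts, 1944 at 1648 loci, held 29.8% of the FPKM sum at E50 and 6.27% at E70. The fragments behind each value are not given, so low values have no counting error here.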

Other observations

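Low values took few ratios. Among 608 single-transcript loci under 1 FPKM at both stages, the ratio of E70 to E50 was most often near −1.32 on the log2 scale (75 loci) and near −0.32 (70 loci), then near 0.26 (30 loci), −2.32 (29 loci) and 0.68 (29 loci). Of the 608, 433 (71.2%) lay within 0.01 on the log2 scale of 0.799 times a ratio of whole numbers up to 6, values that cover 8.51% of the range. If the peak at −1.32 stands for equal fragment numbers in place of that at −0.32, the base ratio is 0.399, and the values do not settle which. In 288 transcripts the E70 value was 0 in the rows used here and above 0 in those of another comparison, while no E50 value differed in this way.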
